A study of Arabidopsis halleri subsp. gemmifera and Arabidopsis thaliana with 4 samples.

Results

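The 89 loci described here were read in roots of Arabidopsis thaliana and had no read at all in roots of its relative Arabidopsis halleri. They were chosen by their values: 0 total reads in both A. halleri libraries and a mean of at least 10 CPM, the reads of a locus per 1e6 reads of the library, over both A. thaliana libraries. Of the 33602 loci listed, 12434 reached that level in A. thaliana, and 92 of those, or 0.74%, had 0 reads in A. halleri. The 89 are these 92 without AT5G03570, AT1G05300 and AT3G29410, which are not described here. Because the species difference chose these loci, it is given for them as a description, with no test. The same rule turned round found 34 of 12618 loci, or 0.269%, that were read only in A. halleri. Leaving out 1 A. halleri library changed the number, to 117 loci without replicate 1 and to 153 without replicate 2, since a single read in either library removes a locus.

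A. halleri ssp. gemmifera is a perennial that tolerates and hyperaccumulates zinc and cadmium, whereas A. thaliana does neither. The study compared roots of both species, with 2 libraries of each that the labels call biological replicates. All plants were grown in hydroponic culture on a control Hoagland solution that held zinc as ZnSO4 at 0.8 µM, iron as NaFeEDTA at 10 µM and copper as CuSO4 at 0.3 µM. The labels give no ecotype, transgene, plant age or number of plants per library. RNA was taken with TRIzol and libraries were made with an Illumina kit.

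The deposited counts for A. halleri, like those for A. thaliana, refer to A. thaliana gene models. A gene that A. halleri lacks, one it has but does not transcribe in roots, and one whose sequence has moved too far for its reads to align would all be listed with few or no reads. In these data those cases cannot be told apart, and in bulk roots neither can fewer cells of a type and less RNA per cell. Plant genomes change quickest where genes sit in tandem copies, as disease resistance genes, terpene synthases and small secreted proteins do. Long non-coding RNAs and pseudogenes also keep little sequence between species, while ribosomal proteins and other core genes keep most of it.

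The A. halleri libraries held 16335761 and 15497893 reads, and the A. thaliana libraries held 18127031 and 22762183. A single read was worth between 0.0439 and 0.0645 CPM. The 10 root markers were all at 1 CPM or more in every library, and edgeR's quasi-likelihood test called 5 of them higher in A. halleri and 1 lower, leaving 4 uncalled. Their summed level was 7370 and 6550 CPM in A. halleri against 2540 and 2440 CPM in A. thaliana, but PYK10 decided that direction. Without it, the other 9 summed to 876 and 857 CPM against 1170.0 and 1140.0 CPM. The phosphate transporter gene AT5G43350, the 1 marker called lower, held most of that sum, at 520 and 553 CPM against 879 and 851 CPM. Of these 9, 4 were called higher in A. halleri and 4 were not called. The 6 markers of green tissue summed to 156 and 215 CPM in A. halleri against 37.2 and 29.3 CPM in A. thaliana. The same test called all 6 higher in A. halleri, and none was at 0 in any library. Their part in the results was not tested.

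The members are best seen against the genes most like them in sequence. The following 90-base stretches align a member with its closest relative in the A. thaliana genome (build TAIR10.1, from RefSeq), with capitals at the mismatched bases. They were chosen because the relative was read strongly in at least 1 species. AFB5 and AFB4 are auxin receptors and differed at 17 of the 90 bases (AFB5, chr5:20336184-20336273, minus strand; AFB4, chr4:12615619-12615708, minus strand).
AFB5: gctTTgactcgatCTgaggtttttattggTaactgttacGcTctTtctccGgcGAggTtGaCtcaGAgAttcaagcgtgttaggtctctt
AFB4: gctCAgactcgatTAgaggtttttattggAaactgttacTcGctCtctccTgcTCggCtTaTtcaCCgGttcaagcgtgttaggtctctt
AGO3 and AGO2 are Argonaute proteins, which bind small RNAs, and differed at 18 bases (AGO3, chr1:11189738-11189827, plus strand; AGO2, chr1:11182548-11182637, plus strand).
AGO3: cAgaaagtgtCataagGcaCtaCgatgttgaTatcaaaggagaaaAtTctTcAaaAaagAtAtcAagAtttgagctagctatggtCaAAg
AGO2: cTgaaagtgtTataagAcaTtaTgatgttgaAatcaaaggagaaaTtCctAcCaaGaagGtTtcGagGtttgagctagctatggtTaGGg
AT3G59370 and AT1G12080 are annotated as vacuolar calcium-binding proteins and differed at 16 bases (AT3G59370, chr3:21942168-21942257, minus strand; AT1G12080, chr1:4084679-4084768, plus strand).
AT3G59370: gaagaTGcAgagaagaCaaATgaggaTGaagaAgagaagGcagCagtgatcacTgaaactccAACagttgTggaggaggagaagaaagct
AT1G12080: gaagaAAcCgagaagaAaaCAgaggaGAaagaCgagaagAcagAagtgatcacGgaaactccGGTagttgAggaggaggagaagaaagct
AT4G12545 and AIR1 encode lipid-transfer-like proteins and differed at 6 bases (AT4G12545, chr4:7434395-7434484, plus strand; AIR1, chr4:7439320-7439409, plus strand).
AT4G12545: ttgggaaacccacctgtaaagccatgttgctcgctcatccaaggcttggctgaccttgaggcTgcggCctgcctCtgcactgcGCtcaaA
AIR1: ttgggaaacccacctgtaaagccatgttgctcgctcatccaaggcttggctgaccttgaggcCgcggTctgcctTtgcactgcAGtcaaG
AT5G48412 and AT2G31585 are non-coding RNAs and differed at 3 bases (AT5G48412, chr5:19624012-19624101, minus strand; AT2G31585, chr2:13446140-13446229, plus strand).
AT5G48412: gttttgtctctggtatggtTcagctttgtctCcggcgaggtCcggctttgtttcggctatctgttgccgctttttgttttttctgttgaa
AT2G31585: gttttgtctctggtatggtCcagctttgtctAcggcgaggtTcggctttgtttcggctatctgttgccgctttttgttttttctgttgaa
In the first 3 pairs the relative was called higher in A. halleri, and in the last 2 pairs the relative was also almost unread there.

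Together the members took 49164 reads in A. thaliana replicate 1 and 58711 in replicate 2, which is 0.271% and 0.258% of those libraries. Their levels were skewed. Only 2 exceeded 100 CPM, 14 exceeded 40 CPM and 45 lay under 20 CPM. The median, that of AT1G10990, was 19.99 CPM, against 35.4 CPM for the other loci at 10 CPM or more. Set against a floor of 3 reads over both A. halleri libraries, which is 0.0942 CPM, the members ranged from at least 106.5-fold lower in A. halleri for CYP705A30 to at least 3604-fold lower for AT5G48412.

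**Figure D1:**
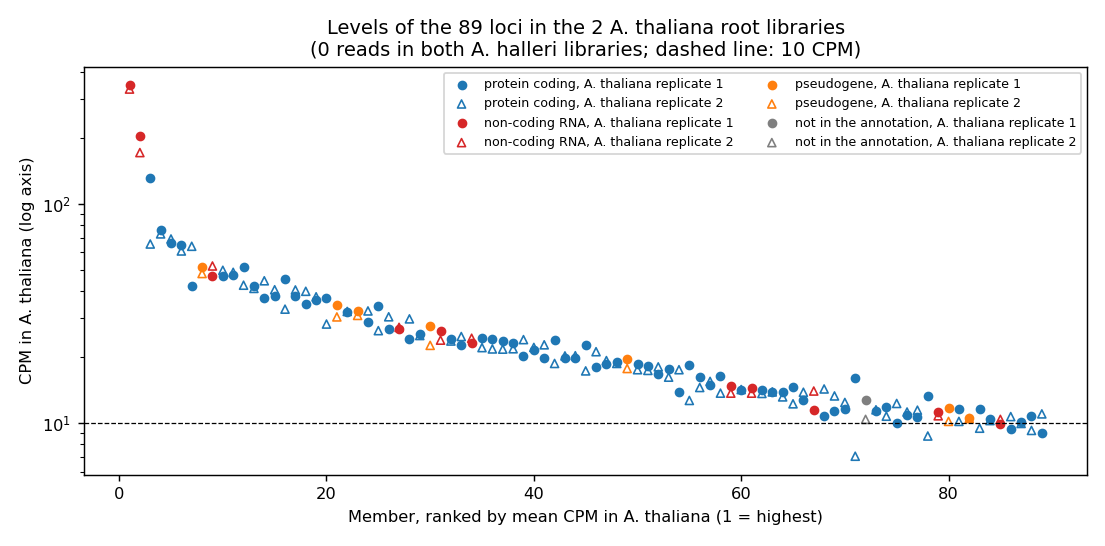
Level of each of the 89 members in CPM (log axis) in A. thaliana replicates 1 and 2, ranked by the mean and coloured by annotation class; every member has 0 reads in both A. halleri libraries. A pair of non-coding RNAs lead the ranking, at means of 339.7 and 187 CPM, and most members lie between 10 and 40 CPM.

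The highest member by CPM was AT5G48412, a non-coding RNA gene on chromosome 5, with 347 CPM in A. thaliana replicate 1 and 333 CPM in replicate 2. These levels came from 6284 and 7573 reads. It was followed by another non-coding RNA, AT1G25098, with 203 and 171 CPM. The highest protein-coding member was the defensin-like gene AT5G33355, at 131 and 65.5 CPM. Defensin-like proteins are small secreted cysteine-rich peptides, many of them antimicrobial.

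Next came PLC9, a phosphoinositide-specific phospholipase C that cleaves a membrane lipid into signalling molecules, at 76.1 and 72.8 CPM. AT3G19520, a protein of unknown function with a DUF626 domain, stood at 66.0 and 69.1 CPM. The lipid-transfer-like gene AT4G12545 stood at 64.7 and 60.9 CPM. MRD1, named for its lower level in the methionine-overproducing mto1 mutant, stood at 42.1 and 64.0 CPM. The auxin receptor AFB5 stood at 42.0 and 41.1 CPM, from 761 and 936 reads. AT1G68238, an uncharacterized protein gene with no close relative found, had 37.2 and 44.5 CPM. AT5G19230, a precursor of a glycoprotein anchored to the membrane by a GPI lipid, had 45.2 and 33.1 CPM.

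The A. thaliana libraries gave like levels for most members. The higher library was under 1.2 times the lower for 68 of the 89, and over 1.5 times for 4. The largest ratio was 2.28, for AT5G52710, annotated as a copper transport protein, at 16.1 and 7.07 CPM. The defensin-like AT5G33355 followed with a ratio of 2.00, AT4G19920, which encodes a protein with a TIR domain, with 1.53, and MRD1 with 1.52. AT5G33355 was the higher of its pair of libraries in replicate 1, and so was its closest relative AT3G59930, another defensin-like gene, at 263 and 146 CPM. The median absolute log2 ratio between the libraries was 0.124 over the members and 0.102 over the other loci at 10 CPM or more.

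At the lower edge the rule cut through a continuous range. Just inside lay AT2G19340, annotated as a magnesium transporter family protein, at 10.08 CPM, the amino acid exporter family gene UMAMIT28 at 10.06 CPM, the lectin gene AT1G60110 at 10.04 CPM and the cytochrome P450 gene CYP705A30 at 10.04 CPM. Just outside, with 0 A. halleri reads, lay AT3G22570, a lipid-transfer-like gene, at 9.999 CPM. The C1 domain gene AT3G45840 at 9.76 CPM, the terpene synthase family gene AT5G48110 at 9.61 CPM and AT5G42730 at 9.53 CPM followed. The requirement of 0 reads had a similar edge. A further 112 loci at 10 CPM or more had 1 to 3 A. halleri reads in all, and 72 of these had exactly 1. The most abundant of them was AT3G20380, with a TRAF-like domain, at 242 and 233 CPM in A. thaliana and 0 and 3 reads in A. halleri. AT3G59930, AT2G31585 and the proline-rich protein gene AT4G19200 had 1 A. halleri read each. By contrast, 11854 of the 12434 loci had more than 100 A. halleri reads.

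Annotation classes contributed unequal shares. Non-coding RNA genes supplied 11 members of the 60 such loci at 10 CPM or more, or 18.3%, and pseudogenes supplied 7 of 39, or 17.9%. Protein-coding genes supplied 70 of 12286, or 0.57%. The last member, AT1G53785, was not found in the annotation. These shares are a description, since the rule chose the members. The non-coding RNA members below the first pair ran from AT4G38932 at 46.7 and 52.0 CPM to AT1G75295 at 9.93 and 10.4 CPM. The leading pseudogene members were AT5G55896 at 51.2 and 48.1 CPM, AT1G35115 at 34.5 and 30.5 CPM and AT5G14840 at 32.3 and 31.0 CPM.

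Loci outside the rule could be tested for the species difference with edgeR's quasi-likelihood test. Over all 20899 loci tested, 72.5% were called at an adjusted p under 0.05 (Benjamini-Hochberg), 36.8% lower and 35.7% higher in A. halleri. Of the 237 non-coding RNA loci that were tested and are not members, 154 were lower in A. halleri, or 65.0%, and 32 were higher, or 13.5%. Their median log2 ratio of A. halleri over A. thaliana was -2.18, against 0.00 over all tested loci other than the members; setting loci at 0 reads in a species at the floor of 3 reads left both medians as they were. Of the 337 pseudogenes tested, 148 were lower, or 43.9%, and 157 were higher, or 46.6%.

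**Figure D2:**
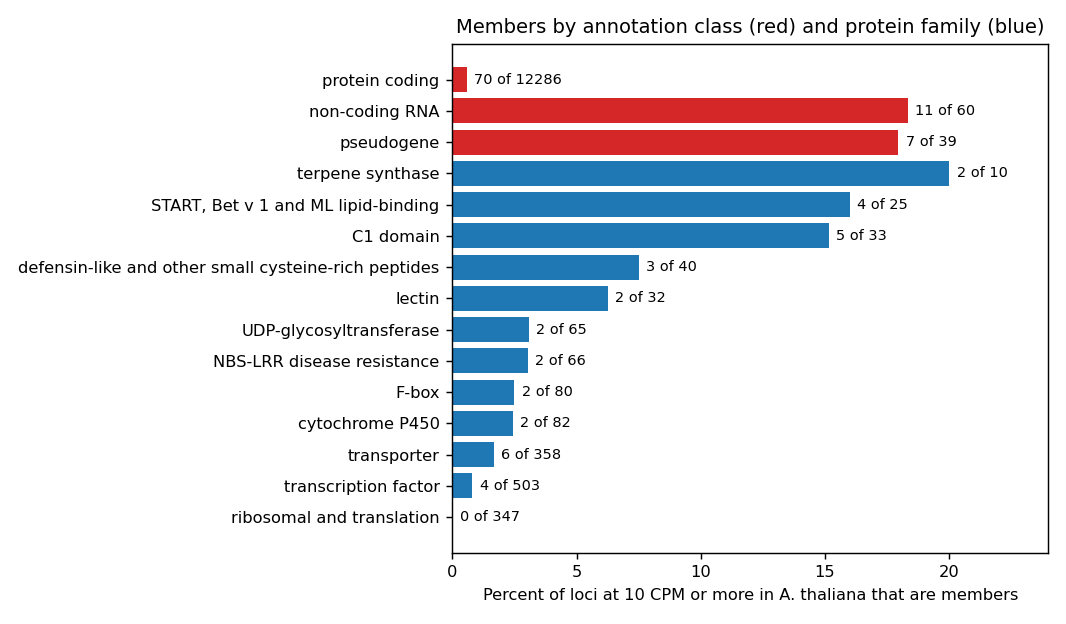
Percent of the loci at 10 CPM or more in A. thaliana that are members, by annotation class (red) and for selected protein families (blue), with the counts beside each bar. Non-coding RNAs are at 18.3%, pseudogenes at 17.9% and protein-coding genes as a whole at 0.57%.

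Among protein families, the largest group with a named domain was the C1 domain family, whose proteins carry cysteine and histidine-rich modules, with 5 members of 33 loci at 10 CPM or more, or 15.2%. AT5G40590 led it at 37.8 and 40.5 CPM, followed by AT4G14980 at 35.0 and 39.9 CPM and AT2G02680 at 24.5 and 22.1 CPM. AT5G59930 at 18.5 and 17.5 CPM and AT5G59940 at 10.9 and 11.2 CPM are adjacent on chromosome 5. Among the 129 tested C1 domain loci that are not members, 79 were lower in A. halleri, 34 were higher and 16 were not called. The called share was 87.6%. Over all tested loci other than the members, which serve as background for each family here, 72.4% were called. Of that background, 36.5% were lower and 35.9% were higher.

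Lipid-binding proteins of the START, Bet v 1 and ML families supplied 4 members of 25 loci, or 16.0%. These were AT5G23830 at 46.7 and 49.7 CPM, AT1G70880 at 51.2 and 42.5 CPM, AT1G55960 at 21.5 and 22.1 CPM and AT1G70860 at 16.2 and 14.5 CPM. Their 37 tested non-members were split evenly, with 16 higher and 16 lower, or 86.5% called. The C1 and lipid-binding groups were drawn up after the members were seen.

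Terpene synthases, which make volatile and defensive terpenoids, supplied 2 members of only 10 loci, AT3G29110 at 23.8 and 18.7 CPM and AT4G20230 at 15.0 and 15.5 CPM. Of the 27 tested terpene synthase loci outside the rule, 17 were lower in A. halleri and 8 were higher, or 92.6% called. Small cysteine-rich secreted proteins supplied 3 of 40, or 7.50%. Besides AT5G33355 and AT4G12545, the third was AT5G26130, a CAP family protein of the kind that includes pathogenesis-related protein 1, at 18.4 and 12.7 CPM. Their 75 tested non-members were split between 34 higher and 32 lower, or 88.0% called.

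Disease resistance genes with TIR or NBS-LRR domains, which detect pathogens inside the cell, supplied 2 of 66, namely AT4G36150 at 16.5 and 13.7 CPM and AT4G19920. Their 154 tested non-members included 78 lower and 53 higher, or 85.1% called. Lectins supplied 2 of 32, AT1G60095 at 23.2 and 21.8 CPM and its neighbour AT1G60110. Cytochrome P450 enzymes supplied 2 of 82, CYP81D3 at 25.5 and 25.1 CPM and CYP705A30 at 9.05 and 11.03 CPM. No locus of the 347 ribosomal and translation loci, and none of the 192 receptor kinases and receptor-like proteins, was a member. Nor was any of the 62 peroxidase, 35 glutathione S-transferase and 34 histone loci. Over all loci at 10 CPM or more, 0.74% had 0 A. halleri reads, so groups of these sizes would hold few or none.

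Transporters supplied 6 of 358, or 1.68%. SFP1, a sugar-porter family protein, was the highest by CPM and by RPKM, at 37.3 and 28.3 CPM. GLR2.4, a glutamate receptor-like channel, stood at 14.1 and 14.2 CPM, and HA8, a plasma membrane proton pump, at 13.9 and 13.2 CPM. The other transporters were AT5G52710, AT2G19340 and UMAMIT28. Of the 624 tested transporter loci outside the rule, 297 were higher in A. halleri and 190 were lower, or 78.0% called.

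Transcription regulators supplied 4 of 503, or 0.795%, close to the 0.74% over all loci at 10 CPM or more. These were the NAC factors NAC089 at 18.04 and 21.2 CPM and NAC032 at 18.5 and 19.3 CPM, and the storekeeper-related proteins AT4G00238 at 24.1 and 29.9 CPM and AT4G00270 at 20.3 and 24.03 CPM. Single members with known roles included ASY2, a HORMA-domain relative of the meiotic axis protein ASY1, at 10.48 and 10.28 CPM. Another was RGF7, a peptide of the root meristem growth factor family, at 11.6 and 9.49 CPM.

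The longest model of a member had a median of 1340 bases against 1630 bases for the other loci at 10 CPM or more, and their median number of exons was 2 against 5. A single exon was found in 28 of the 89 members, or 31.5%, against 11.9% of the others. Median GC content of the transcript was 40.6% against 41.5%. On the scale of RPKM, which divides CPM by the length of the model, the median member stood at 16.5 against 22.1. Per length the ranking changed, with AT5G48412 at 474 RPKM and AT5G33355, the shortest member, second at 317 RPKM, ahead of AT1G25098 at 166 RPKM. Members lay on every chromosome, with 28, 8, 13, 18 and 21 on chromosomes 1 to 5.

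Many members have close relatives elsewhere in the genome. A relative outside the list, at 70% identity or more over at least 50% of the shorter transcript, was found for 63 of the 89. With relatives inside the list counted too, the number was still 63, or 70.8%, against 43.1% of the other loci at 10 CPM or more. At 80% identity, counted in this second way, the shares were 42.7% and 21.7%. Of the 63 pairs, 29 lay at 70 to 80% identity, 25 at 80 to 90% and 9 at 90% or more. The 26 members with no such relative included TOM20-1, NAC032, AHG1 and RGF7.

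The relatives were not used to choose the members, so their own species difference could be tested. That test is not free of the rule where a pair may share reads. None of the A. thaliana reads of AT4G09310 and AT4G09200, both 99.7% identical to their relative AT4G09250, was unique. For AT1G25098, which has 2 models and is 99.9% identical to AT1G25175, 23.2% were unique. Both of these relatives were called lower in A. halleri. The 63 members had 59 distinct relatives. In A. halleri, 21 of these, or 35.6%, had 0 reads, against 30.3% of all listed loci, and 21 were at 1 CPM or more. In the edgeR test, 39 relatives had enough reads, and 35 of these were called, or 89.7% against the 72.5% over all tested loci. Of the 39, 25 were lower in A. halleri, or 64.1%, 10 were higher, or 25.6%, and 4 were not called. The median log2 ratio of A. halleri over A. thaliana was -2.60, with or without relatives at 0 reads in a species set at the floor of 3 reads. It differed with identity: the 14 tested relatives at 85% identity or more had a median of -8.65, or -5.84 at the floor, and the 25 under 85% had -1.42. The difference between these groups was not tested.

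**Figure D3:**
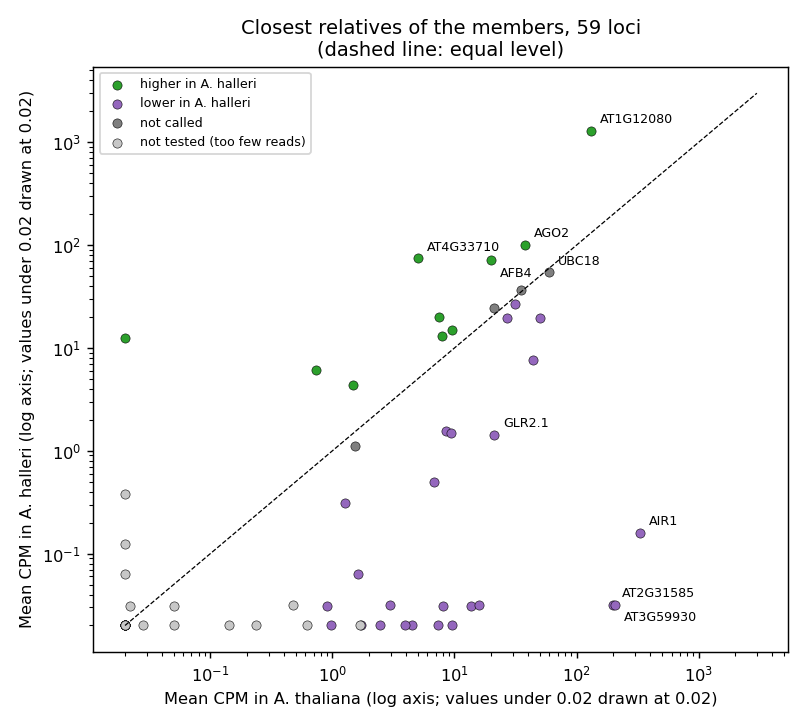
Mean CPM of each of the 59 closest relatives in A. thaliana (horizontal) and in A. halleri (vertical), both on log axes, coloured by the call of the edgeR test; values under 0.02 CPM are drawn at 0.02. The points split between a few relatives above the line of equal level, led by AT1G12080, and many along the floor of A. halleri reads, with AT2G31585 and AT3G59930 at the right.

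Among the relatives that were higher in A. halleri, AT1G12080 had the most reads. It is the relative of AT3G59370, which had 36.6 and 37.7 CPM in A. thaliana. AT1G12080 had 1420.4 and 1182 CPM in A. halleri and 115 and 146 CPM in A. thaliana, a log2 ratio of 3.24 (adjusted p = 2.36e-06, edgeR). Per length, its mean A. halleri level of 1859.8 RPKM exceeded the sum of both genes in A. thaliana, 258 RPKM.

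AGO2, the relative of AGO3 and its neighbour on chromosome 1, had 88.0 and 114 CPM in A. halleri and 39.8 and 36.2 CPM in A. thaliana (log2 ratio 1.34, edgeR adjusted p = 0.000128). AGO3 itself stood at 17.7 and 16.2 CPM in A. thaliana, and per length the pair summed to 16.1 RPKM there. AGO2 alone averaged 30.3 RPKM in A. halleri.

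AT4G33710, the CAP family relative of AT5G26130, had 71.4 and 77.5 CPM in A. halleri and 3.86 and 6.15 CPM in A. thaliana (log2 ratio 3.79, edgeR adjusted p = 3.58e-06). AT4G33710 averaged 97.3 RPKM in A. halleri, and the pair summed to 37.6 RPKM in A. thaliana. With AFB4, at 30.2 RPKM against a pair sum of 25.3 RPKM, these made 4 pairs of 63 in which the relative in A. halleri was at least the pair sum in A. thaliana. UGT71B5, a glycosyltransferase and the relative of AT4G15270, had 5.69 and 6.58 CPM in A. halleri and 0.552 and 0.923 CPM in A. thaliana (log2 ratio 2.94, edgeR adjusted p = 8.38e-05). AT1G28500, the DUF626 relative of AT3G19520, had 12.98 and 12.07 CPM in A. halleri and no read in A. thaliana, the reverse of the member.

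Of the 35 called relatives, 25 were lower in A. halleri, the direction of their members. Of the 39 tested, 15 had at most 3 reads there. AIR1, named for its induction by auxin in root cultures, had 342 and 318 CPM in A. thaliana and 1 and 4 reads, or 0.061 and 0.258 CPM, in A. halleri (log2 ratio -11.05, edgeR adjusted p = 2.81e-07). AT2G31585, which is 96.5% identical to AT5G48412, had 204 and 192 CPM in A. thaliana and 0 and 1 read in A. halleri. AT3G59930 showed the same pattern, with 0 and 1 read in A. halleri. The C1 domain relative AT2G02620 of AT2G02680 had 3.92 and 5.10 CPM in A. thaliana and no read in A. halleri. The terpene synthase AT4G20210, the relative of AT3G29110, had 8.28 and 7.78 CPM in A. thaliana and 1 and 0 reads in A. halleri. AT2G18560, a glycosyltransferase next in sequence to the member AT2G18570, was lower by less, at 1.78 and 1.23 CPM against 8.99 and 9.84 CPM (log2 ratio -2.72, edgeR adjusted p = 3.69e-05).

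The 4 tested relatives that were not called were read in both species. UBC18, a ubiquitin-conjugating enzyme and the relative of ATUBC2-1, had 56.5 and 52.7 CPM in A. halleri and 62.8 and 56.7 CPM in A. thaliana (edgeR adjusted p = 0.0834). ATUBC2-1 itself had 24.1 and 23.7 CPM in A. thaliana. AT1G29030, a putative apoptosis inhibitor related to AT3G19515, had 24.6 and 24.3 CPM against 21.3 and 20.9 CPM (edgeR adjusted p = 0.284). The other two were AT1G34060 and AT4G29870.

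For 6 members that belong to small, well-known families, every other gene of the family was looked up. The families were picked after the values were seen. AFB5 belongs to the TIR1/AFB family of F-box proteins, which bind auxin and mark repressors of auxin responses for degradation. Of the other 5 genes, AFB1, AFB2 and AFB4 were higher in A. halleri, TIR1 was lower and AFB3 was not called. AFB4, the nearest to AFB5, had 69.8 and 72.7 CPM in A. halleri and 21.2 and 18.6 CPM in A. thaliana (log2 ratio 1.76, edgeR adjusted p = 7.5e-06). AFB1 had 110.3 and 109.8 CPM against 53.5 and 67.9 CPM, and TIR1 had 100.4 and 112 CPM against 145 and 165 CPM. The whole family, AFB5 included, summed to 477 and 480.0 CPM in A. halleri and 418 and 434 CPM in A. thaliana.

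PLC9 has 8 relatives in the phosphoinositide phospholipase C family, of which 6 could be tested. PLC1, PLC2, PLC3 and AT3G55940 were higher in A. halleri, and PLC4 and PLC5 were lower. PLC1 had 58.2 and 54.9 CPM in A. halleri and 11.2 and 10.7 CPM in A. thaliana (log2 ratio 2.29, edgeR adjusted p = 2.08e-06). PLC2 had 162 and 175 CPM against 124 and 121 CPM, and its direction reversed when only unique reads were counted, to a log2 ratio of -6.20. PLC8, the closest relative of PLC9, had 0 reads in A. halleri and only 2 and 4 in A. thaliana. Summed with PLC9, the family stood at 285 and 294 CPM in A. halleri and 278 and 268 CPM in A. thaliana.

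AHG1 is 1 of the clade A protein phosphatases 2C, which hold back abscisic acid signalling, and is best known from seeds. It had 16.8 and 18.1 CPM in A. thaliana roots. Of the 8 others, 7 could be tested: ABI2, HAI1 and HAI2 were higher in A. halleri, HAB1, HAB2 and AHG3 were lower and ABI1 was not called. ABI2 reversed with unique reads, to a log2 ratio of -0.36, and the calls of HAB2 and HAI1 were lost without A. halleri replicate 2. HAB2 also lost its call without A. thaliana replicate 1, and HAI1 without A. thaliana replicate 2. AHG3 had 22.3 and 25.7 CPM in A. halleri and 56.0 and 42.3 CPM in A. thaliana (log2 ratio -1.11, edgeR adjusted p = 0.000467). With AHG1 included, the clade summed to 146 and 160 CPM in A. halleri and 249 and 203 CPM in A. thaliana.

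TOM20-1 encodes a receptor that takes up proteins into mitochondria and had 19.8 and 20.3 CPM in A. thaliana. TOM20-2 and TOM20-3 were higher in A. halleri, at 55.6 and 53.1 CPM against 32.1 and 32.5 CPM for TOM20-2, and TOM20-4 was lower, at 13.3 and 10.9 CPM against 23.8 and 26.7 CPM. Summed over the 4 genes, the family stood at 123 and 114 CPM in A. halleri and 108 and 115 CPM in A. thaliana. NAC032 is 1 of the ATAF group of stress-related NAC factors, and here no other gene was higher in A. halleri: ATAF1 and NAC102 were lower and ATAF2 was not called. NAC102 had 20.6 and 24.5 CPM in A. halleri and 107 and 87.7 CPM in A. thaliana (log2 ratio -2.19, edgeR adjusted p = 1.06e-05). The ATAF group, NAC032 included, summed to 132 and 176 CPM in A. halleri and 300 and 263 CPM in A. thaliana.

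GLR2.4 belongs to clade 2 of the glutamate receptor-like channels. GLR2.2, GLR2.3 and GLR2.6 were higher in A. halleri, and GLR2.1, GLR2.5, GLR2.7 and GLR2.8 were lower. The call of GLR2.5 was lost without A. halleri replicate 1 or without A. thaliana replicate 1. GLR2.3 had 71.5 and 73.4 CPM in A. halleri and 18.4 and 20.1 CPM in A. thaliana (log2 ratio 1.83, edgeR adjusted p = 4.57e-06). GLR2.1, the closest relative of GLR2.4, went the other way, with 1.84 and 1.03 CPM against 22.2 and 20.03 CPM (log2 ratio -3.95, edgeR adjusted p = 6.27e-06). Over the whole clade, GLR2.4 included, the sums were 127 and 129 CPM in A. halleri and 86.6 and 85.7 CPM in A. thaliana.

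**Figure D4:**
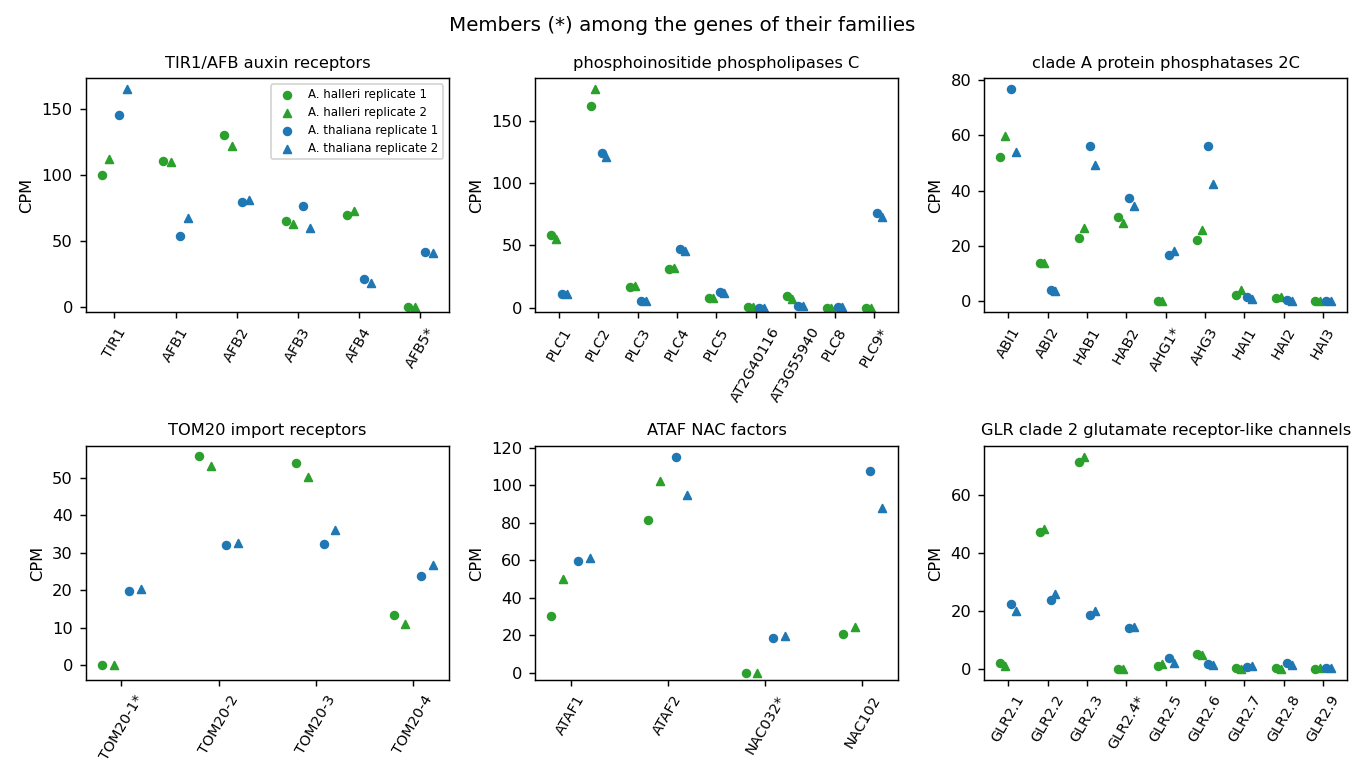
CPM of every gene of 6 families in each A. halleri and A. thaliana library (linear axes that start just under 0), with members marked by an asterisk. AFB4, TOM20-2 and GLR2.3 lie higher in A. halleri, NAC102 lies lower, and the members lie at 0 in A. halleri.

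The gene beside GLR2.4 on chromosome 4, RPS6A, encodes ribosomal protein S6. It had 339.4 and 393 CPM in A. thaliana but 2 and 8 reads in A. halleri, or 0.122 and 0.516 CPM (log2 ratio -10.23, edgeR adjusted p = 3.32e-07). Its partner RPS6B on chromosome 5 had 1043 and 1011 CPM in A. halleri and 389 and 442 CPM in A. thaliana (log2 ratio 1.23, edgeR adjusted p = 2.78e-05). RPS6A is no member, because a few A. halleri reads were counted on it.

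Neighbours were taken as the nearest counted locus on each side of a member, whatever its sequence. There were 166 that are not members, and 30 of these, or 18.1%, had 0 reads in A. halleri. Among all loci with a read in any library, which is how neighbours were taken, that share was 8.31%. Of the 123 tested, 106 were called, or 86.2% against 72.5% over all tested loci. Of these 123, 64 were lower in A. halleri, or 52.0%, 42 were higher, or 34.1%, and 17 were not called. Their median log2 ratio was -0.44, with or without that floor. Over all tested loci other than the members, 36.5% were lower and 35.9% were higher. Without the neighbours that matched their member in sequence, 51 of 100 tested were lower and 34 were higher. These 100 still include neighbours that overlap their member. Without all overlapping neighbours, 57 of 111 tested were lower and 38 were higher.

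Single neighbours that were low in A. halleri included AT5G48430, an aspartyl protease family gene next to AT5G48412, at 13.2 and 20.2 CPM in A. halleri and 293 and 248 CPM in A. thaliana (log2 ratio -4.10, edgeR adjusted p = 3.62e-06). AT1G13340, next to the kinase gene AT1G13350, had 3.31 and 4.45 CPM against 93.2 and 82.4 CPM (log2 ratio -4.58, edgeR adjusted p = 8.29e-07). HEI10, a RING protein of meiotic crossing-over that overlaps MRD1 on the opposite strand, had 0.857 and 1.10 CPM against 14.8 and 18.2 CPM (log2 ratio -4.16, edgeR adjusted p = 5.11e-06). With no strand setting given, reads of HEI10 and MRD1 from their overlap may not be told apart, so this test may not be free of the rule. AT5G23820, beside AT5G23830 and of the same family, was higher in A. halleri, at 51.1 and 54.3 CPM against 9.05 and 14.0 CPM (log2 ratio 2.11, edgeR adjusted p = 4.92e-05). The neighbours of AFB5, PPOX and AT5G49990, were lower by less, with log2 ratios of -0.53 and -0.71.

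Some members lay beside each other. There were 7 pairs of members within 20 kb, and in 4 of them no other counted locus lay between. These 4 were the lectin genes AT1G60095 and AT1G60110, the pseudogenes AT2G13970 and AT2G13975, AT3G19515 with AT3G19520, and the C1 domain genes AT5G59930 and AT5G59940. The lipid-binding genes AT1G70860 and AT1G70880 flanked AT1G70870, a gene of the same family with the opposite pattern: it had 152 and 199 reads in A. halleri and 0 in both A. thaliana libraries. The storekeeper-related genes AT4G00238 and AT4G00270 were separated by 3 counted loci.

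The remaining pair was PLC9 with AT3G47200, a DUF247 protein gene. Between them lay AT3G47210, another DUF247 gene, with 109 and 96.2 CPM in A. thaliana and 0 and 1 read in A. halleri. Downstream of PLC9, AT3G47250 and PLC8 had no A. halleri read either, but at most 7 reads in an A. thaliana library. Further out on the same side, the gene SELT was read in both species, at 17.1 and 18.3 CPM in A. halleri and 10.6 CPM in both A. thaliana libraries. On the other side AT3G47170 was higher in A. halleri, at 3.49 and 2.39 CPM against 0.441 and 0.088 CPM. The stretch with at most 1 A. halleri read per locus thus held 5 neighbouring counted loci, from AT3G47200 to PLC8.

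Around AT4G12545 the picture was mixed within a single gene family. AIR1 on one side was almost unread in A. halleri, as given above. On the other side the lipid-transfer-like genes AT4G12510 and AT4G12520 were read in both species. AT4G12510 was higher in A. halleri, at 92.1 and 69.1 CPM against 28.1 and 28.2 CPM (log2 ratio 1.44, edgeR adjusted p = 6.59e-05), and AT4G12520 was not called, at 173 and 106 CPM against 127 and 120.1 CPM.

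**Figure D5:**
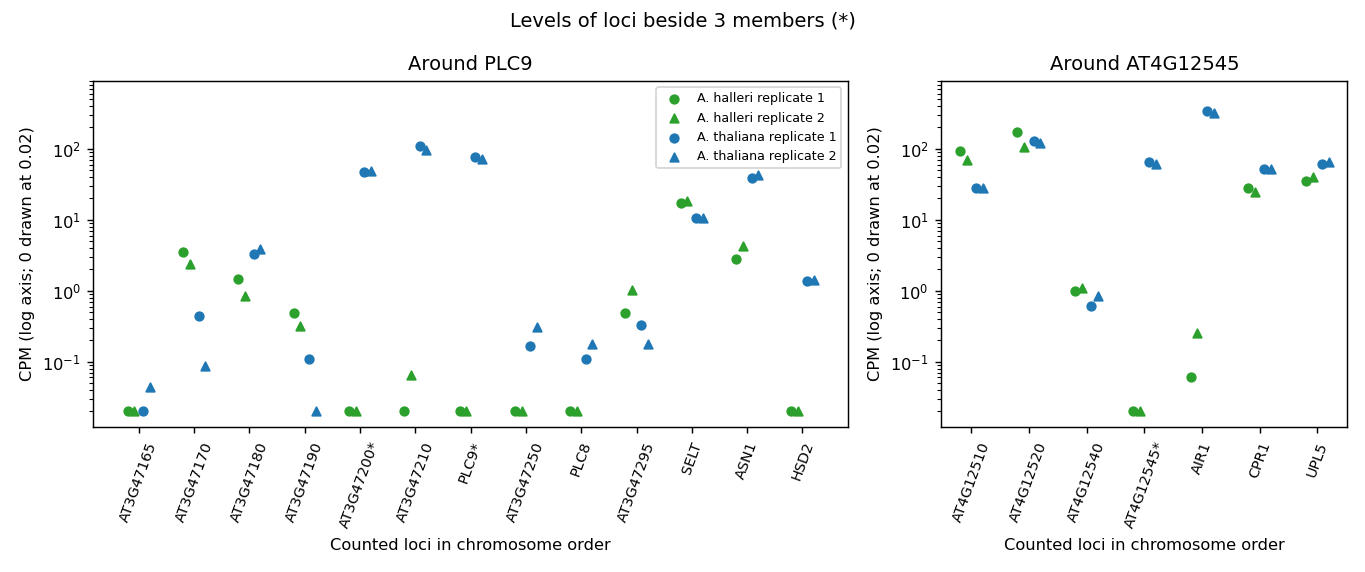
CPM (log axis, 0 drawn at 0.02) of the counted loci around PLC9 and around AT4G12545 in chromosome order, for each library, with members marked by an asterisk. A. halleri is at or near 0 from AT3G47200 to PLC8 and at the outermost loci AT3G47165 and HSD2, while in the right panel it is near 0 for AT4G12545 and AIR1 only.

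The deposited counts separate total reads from unique ones, and the levels above rest on total reads. The members AT4G09310 and AT4G09200 encode SPRY domain proteins, are 100% identical to each other and 99.7% identical to AT4G09250, and none of their 257, 311, 211 and 283 A. thaliana reads was unique. Their separate levels are therefore uncertain. Of the 73 members with 1 model, 66 had at least 95% unique reads, and 5 had under 90%: these were AT4G09310, AT4G09200, AT1G03410 with 6.33%, AT5G28919 with 60.2% and AT5G65575 with 86.2%. The other 16 members have several models, and 15 of them had under 60% unique reads, with a median of 33.2% over the 16. Among the other loci at 10 CPM or more, the median was 14.4% with several models and 100% with 1. AT1G13350 had 1.72% unique reads, AT3G19520 4.66%, AT3G47200 10.7%, MRD1 16.9% and UMAMIT28 25.3%. On unique reads alone, AT3G19520 stood at a mean of 4.55 CPM, AT3G47200 at 7.45 CPM and MRD1 at 12.8 CPM. AT1G25098 is 99.9% identical to its relative AT1G25175, 23.2% of its reads were unique, and it stood at 63.3 CPM on these. In all, 11 of the 89 members fell under 10 CPM on unique reads, and 8 of the 11 have several models. Counted loci on the opposite strand overlapped 15 members, among them AT1G03410, AT5G28919 and AT5G65575. On unique reads AT1G03410 stood at a mean of 1.64 CPM. No strand setting is given in the sources used here, so reads from the stretch where an overlapped member and its partner meet may not be told apart. AT4G30750 and AT4G36150 were overlapped only at an end and had 99.83% and 100% unique reads. Their partners AT4G30760 and AT4G36140 each had 0 and 1 A. halleri reads.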

How the data were processed

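Root RNA of 2 species was sequenced in 4 libraries. Per the file headers, the authors deposited total and unique read counts, a gene length and an RPKM value for each of 41671 A. thaliana transcript models. Per the submitters' processing notes, the build was TAIR 10; no aligner, counter or strand setting is named in the sources used here. Counts and RPKM were summed per locus, and CPM was taken on library totals. Of 33602 loci, 32835 were found in the RefSeq annotation (TAIR10.1).

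Loci were tested with edgeR 4.0.16 (R 4.3.3; TMM, filterByExpr, quasi-likelihood F test, species as the only term, Benjamini-Hochberg at 0.05). DESeq2 1.42.0, RLE scaling, no filter, unique reads, a replicate block and leaving out each library were alternatives. Closest relatives came from BLAST 2.17.0 of transcripts, sense strand, expect value 1e-5, without loci overlapping the member. The text names the top 20 members by CPM, up to 3 per family with 3 or more, adjacent members, edge loci, the 4 most uneven members and selected genes chosen after their values were seen. The members and lists were chosen with earlier results of these data known. The labels do not say whether replicates were separate cultures, so p-values measure only the spread between these libraries. Intervals and floors cover counting error only.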

Additional observations from a re-analysis of the deposited data

How the results depend on the processing

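The number of loci moved with its rule, from 89 to 158 at a mean of 5 CPM or more, to 44 at 20 CPM or more, to 201 with up to 3 A. halleri reads and to 144 on unique reads, which held only 78 of the 89, and it ran from 88 to 153 when 1 library was left out. It was 91 on TMM-scaled library sizes, 81 with 10 CPM required in each library and 83 at 10 RPKM, where only 65 of the 89 remained. Called relatives numbered 35 and fell to 20 when 80% identity was required, by fewer relatives being counted, and ran from 35 to 37 without 1 library. Called neighbours numbered 106 and became 208 with 2 neighbours on each side, and ran from 96 to 100 without 1 library; called loci of the members' families ran from 4949 to 5203, against 5463, and those of all tested loci from 13615 to 14259, against 15161 and 13732 with DESeq2. Of the single genes named, PLC2 reversed with unique reads, to a log2 ratio of -6.20, and so did ABI2, to -0.36; the cause was not tested. Replicates share only a number: across 20899 loci, deviations of same-numbered libraries had a correlation of -0.051. With a replicate block, 35 relatives, 104 neighbours, 5351 loci of the members' families and 14819 of all loci were called. With 2 libraries per species, a locus with 0 reads may still be transcribed below 3 reads over both A. halleri libraries.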
